A study of Mus musculus with 18 samples.

Results

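The genes described here act on extracellular purines in regulatory T cells (Tregs), CD4+ T cells defined by the factor Foxp3 that hold immune responses in check. They are Entpd1 (CD39), Nt5e (CD73), Cd38, Art2b, P2rx7, Adora2a, Dpp4 (CD26) and Ada, 8 genes chosen by name. A gene was followed where a probe set of the array carried its symbol and no other. That held for 5 of the 8 (Entpd1, Nt5e, P2rx7, Dpp4 and Ada), each with 1 probe set, among 19752 genes with such a probe set. Cd38, Art2b and Adora2a were not analysed here. All 5 genes passed the filter on low values in each fit.

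The data are 18 whole-transcript arrays in 6 groups of 3, all from mice on the NOD background, a strain that develops autoimmune diabetes. In 4 groups the cells were spleen Tregs of female mice aged 60 days, sorted on a FACSAria. Those mice were Foxp3-eGFP-Cre-ERT2 x Rosa26-YFP, so that the Foxp3 locus drives GFP and a recombinase active only under tamoxifen, and a Treg present during treatment turns on YFP for good, as do its descendants. Tamoxifen was given in 4 injections between days 0 and 10 of life (perinate) or days 35 and 45 (adult). Cells that were GFP+ YFP+ are called tagged and cells that were GFP+ YFP- untagged, so tagged perinate cells are Tregs marked around birth and still present in the grown mouse. The untagged cells of both treatments are the remaining Tregs, whatever the time they arose. The other 2 groups were CD4+ GFP+ Tregs of the thymus of male mice, aged 4 days (thymus perinate) or 5 weeks (thymus adult), sorted on a MoFlo. Tagging marks only cells in which the recombinase acted, and all 4 spleen groups had received tamoxifen, whereas no treatment is given for the thymus groups. The labels do not say whether a sample is 1 animal or a pool, so the p-values below speak for the scatter of these samples, which may be technical.

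ATP that leaves cells is a danger signal, and adenosine made from it restrains T cells. Entpd1 removes phosphates from ATP and ADP to give AMP, and Nt5e turns AMP into adenosine. Both enzymes sit on the surface of mouse Tregs and their joint work is a known route of suppression. P2rx7 is an ion channel opened by ATP, and Tregs are among the T cells it kills most readily. Ada deaminates adenosine to inosine. Dpp4 cuts dipeptides from chemokines and other peptides at the cell surface, and in humans it also anchors Ada there.

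The promoters of the 2 ectonucleotidases are shown because Entpd1 and Nt5e were both lower in the perinate thymus. Both were also higher in the spleen by the average of its groups. Each run is 300 bases long in RefSeq on GRCm38.p6, from 250 bases before to 50 after an annotated start, written 5′ to 3′ on the strand of the gene, the plus strand for all 3. The reference genome is that of another mouse strain than NOD, and the arrays do not tell which start was used. Capitals mark matches to the short motifs searched. Entpd1 has 2 annotated starts, at chr19:40612116-40612415 and at chr19:40659520-40659819, and Nt5e has 1, at chr9:88327359-88327658.
Entpd1 first start: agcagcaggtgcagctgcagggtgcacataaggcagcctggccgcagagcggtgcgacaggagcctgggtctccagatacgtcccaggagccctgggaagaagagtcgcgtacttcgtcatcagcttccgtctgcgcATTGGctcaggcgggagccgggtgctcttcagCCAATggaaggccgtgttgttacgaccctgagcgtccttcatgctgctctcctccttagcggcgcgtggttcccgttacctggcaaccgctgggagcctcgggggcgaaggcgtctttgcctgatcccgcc
Entpd1 second start: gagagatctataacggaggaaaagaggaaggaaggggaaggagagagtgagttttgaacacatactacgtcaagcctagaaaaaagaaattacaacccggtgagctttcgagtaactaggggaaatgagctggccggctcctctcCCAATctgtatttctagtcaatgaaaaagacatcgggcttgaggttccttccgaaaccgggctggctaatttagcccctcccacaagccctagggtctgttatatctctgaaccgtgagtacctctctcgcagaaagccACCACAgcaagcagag
Nt5e: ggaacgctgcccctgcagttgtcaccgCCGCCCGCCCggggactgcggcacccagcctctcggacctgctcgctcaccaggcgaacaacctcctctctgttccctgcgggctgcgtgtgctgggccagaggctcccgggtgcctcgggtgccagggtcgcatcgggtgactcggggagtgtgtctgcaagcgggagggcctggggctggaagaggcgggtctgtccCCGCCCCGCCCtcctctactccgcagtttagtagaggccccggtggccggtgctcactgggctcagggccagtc

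The motifs were searched on both strands as exact letters: the GC box GGGCGG, the CAAT box CCAAT, the TATA box TATAAA, a forkhead core TGTTTAC, a Runx site TGTGGT, an Ets site GGAAGT, the cAMP response element TGACGTCA and the hypoxia core ACGTG. The Nt5e window had a GC content of 71% with 23 CpG and 4 GC boxes, which lie in 2 pairs whose letters overlap. The first Entpd1 window had a GC content of 64% with 23 CpG and 2 CAAT boxes, 1 on each strand. The second Entpd1 window was poorer in GC, at 48.7% with 10 CpG, and held 1 CAAT box and 1 Runx match. So no motif of the set was shared by Entpd1 and Nt5e in these windows. Over all 32851 promoter windows of this length the median was 52.7% GC and 7 CpG, and 35.7% held a GC box, 37.4% a CAAT box and 16.8% a Runx match. A match describes letters and not binding.

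Values are log2 of the deposited intensities, each group has n = 3, and differences were tested with limma with Benjamini-Hochberg adjustment over all genes of a comparison. A gene is called where the adjusted p is under 0.05. All 7 Treg markers, Foxp3 and Il2ra among them, stood above background in each group. So did Col1a1, Col1a2, Col3a1, Epcam and Krt8 of a list of 8 stroma and epithelium genes. Passing background therefore does not identify a cell type. The summed intensity was 26950 to 36166 over the Treg markers and 908 to 1361 over the stroma and epithelium list. Background here is the range from 3.95 to 6.30 of genes of the sex chromosomes on arrays of the sex that lacks them. One array went against its label: tagged perinate replicate 2, labelled female, gave 9.79 for the Y-linked Eif2s3y where the other 11 spleen arrays gave 3.95 to 4.90, and 8.38 for Xist against 11.86 to 12.41. Both untagged arrays numbered 3 also stood apart, with Ctla4, an inhibitory receptor of Tregs, at 10.46 and 10.44 against 11.63 to 11.94 on the other 4 untagged arrays. The spread of values within an array differed between groups: the interquartile range was 2.94 to 3.12 on tagged perinate and 2.49 to 2.88 on tagged adult arrays, and 3.00 to 3.06 on thymus perinate and 2.08 to 2.82 on thymus adult arrays. The median difference of all genes was 0.12 for tagged perinate minus tagged adult and 0.17 for thymus perinate minus thymus adult, -0.02 and 0.01 after quantile normalization, and 0.21 and 0.29 after median centring, so differences are to be read against those medians. In sorted bulk samples, fewer cells of a type and less RNA per cell cannot be told apart.

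**Figure D1:**
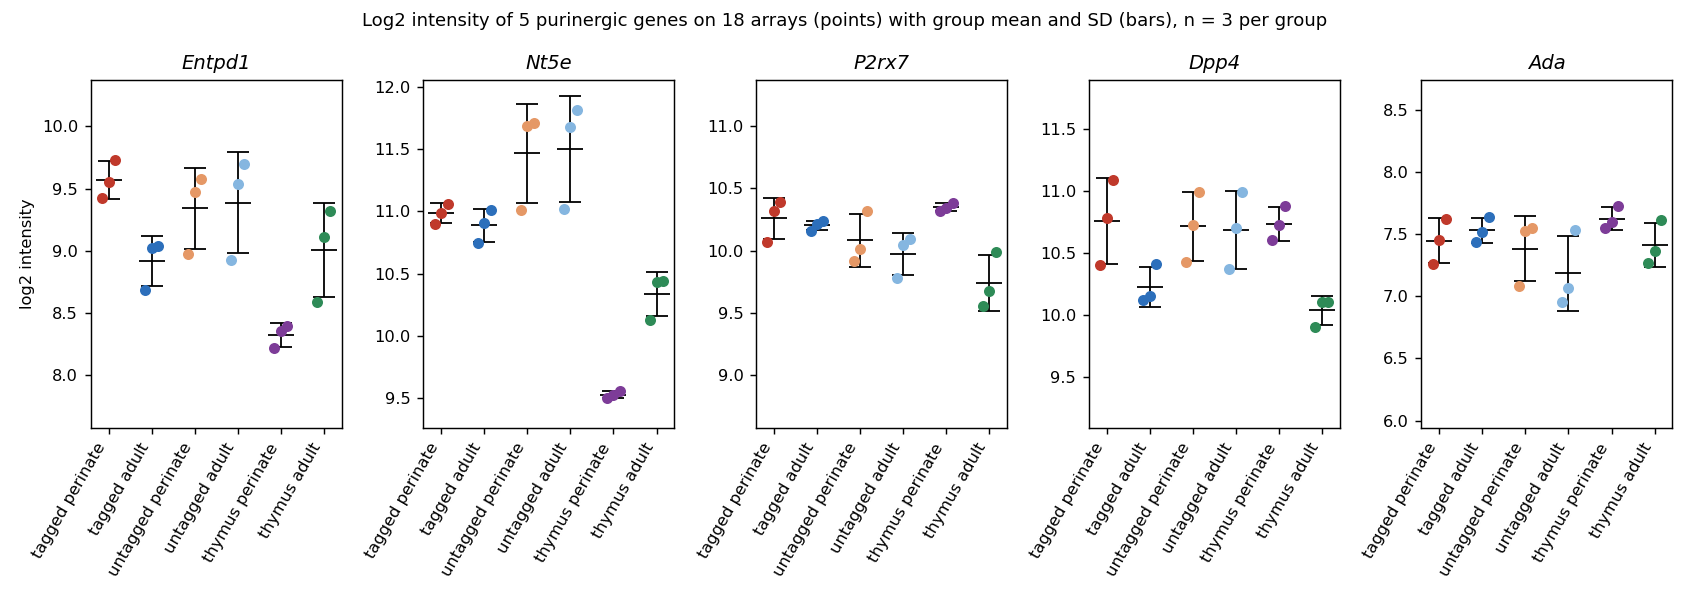
Log2 intensity (y axis) of Entpd1, Nt5e, P2rx7, Dpp4 and Ada in the 6 groups (x axis), with 1 point per array and a bar for the group mean and SD, n = 3. Nt5e on the thymus perinate arrays lies between 9.50 and 9.56, below all other arrays, and the untagged groups have 1 low array each for Entpd1 and Nt5e.

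Entpd1, which starts the breakdown of ATP, had its lowest mean in perinate thymic Tregs. Its highest mean was in the Tregs tagged around birth, whose range overlapped those of both untagged groups. On the thymus perinate arrays Entpd1 read 8.22, 8.35 and 8.40, and on the thymus adult arrays 9.32, 8.59 and 9.11. The tagged adult arrays gave 8.69, 9.03 and 9.04 and the tagged perinate arrays 9.73, 9.43 and 9.56. The groups did not overlap in either pair. In the untagged cells it read 8.97, 9.58 and 9.47 after perinate treatment and 8.93, 9.54 and 9.70 after adult treatment, nearly the same triplet. By mean the order ran tagged perinate (9.57 ± 0.15, SD), untagged adult (9.39 ± 0.41), untagged perinate (9.34 ± 0.32), thymus adult (9.01 ± 0.38), tagged adult (8.92 ± 0.20) and thymus perinate (8.32 ± 0.09). Only the last 2 neighbours in that order had ranges that did not overlap.

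Nt5e, the enzyme that yields adenosine, separated the spleen arrays from the thymus arrays. Thymus perinate arrays gave 9.56, 9.52 and 9.50 and thymus adult arrays 10.44, 10.13 and 10.43. The tagged perinate arrays gave 11.06, 10.99 and 10.90 and the tagged adult arrays 10.75, 11.01 and 10.90, which overlap. Each spleen array was above each thymus array. The untagged perinate arrays gave 11.01, 11.68 and 11.71 and the untagged adult arrays 11.02, 11.67 and 11.82. The order by mean was untagged adult (11.50 ± 0.43, SD), untagged perinate (11.47 ± 0.40), tagged perinate (10.98 ± 0.08), tagged adult (10.89 ± 0.13), thymus adult (10.33 ± 0.18) and thymus perinate (9.53 ± 0.03). The 4 spleen groups were not separated from their neighbours in it, whereas the steps to thymus adult and on to thymus perinate left no overlap.

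P2rx7, the ATP-gated channel, had overlapping neighbours throughout the spleen. Tagged perinate arrays gave 10.07, 10.39 and 10.32, tagged adult 10.21, 10.24 and 10.16, untagged perinate 10.32, 9.92 and 10.01, and untagged adult 10.09, 9.78 and 10.05. In the thymus the perinate arrays read 10.38, 10.34 and 10.32 and the adult arrays 9.99, 9.56 and 9.67, with no overlap. Thymus perinate was highest by mean (10.35 ± 0.03, SD) and thymus adult lowest (9.74 ± 0.22), and no 2 neighbours in the order of the 6 groups were free of overlap.

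Dpp4, the surface peptidase, was low in both adult-dated groups, tagged adult and thymus adult. Tagged perinate arrays gave 10.40, 11.08 and 10.78 and tagged adult arrays 10.16, 10.41 and 10.12, which overlap. Thymus perinate arrays gave 10.87, 10.73 and 10.60 and thymus adult arrays 10.11, 9.90 and 10.10, which do not. The untagged cells read 10.43, 10.73 and 10.99 after perinate and 10.37, 10.70 and 10.99 after adult treatment. By mean tagged perinate (10.76 ± 0.34, SD), thymus perinate (10.73 ± 0.14), untagged perinate (10.71 ± 0.28) and untagged adult (10.69 ± 0.31) lay together, above tagged adult (10.23 ± 0.16) and thymus adult (10.04 ± 0.12).

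Ada, which removes adenosine, differed little between groups. Its 18 values ran from 6.96 on an untagged adult array to 7.72 on a thymus perinate array, and neighbours in the order of its group means all overlapped. The means were 7.62 ± 0.09 (SD) in thymus perinate, 7.53 ± 0.10 in tagged adult, 7.45 ± 0.18 in tagged perinate, 7.41 ± 0.18 in thymus adult, 7.38 ± 0.26 in untagged perinate and 7.19 ± 0.30 in untagged adult.

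In the thymus, the comparison of 4-day with 5-week Tregs asks how the newly made Tregs of the newborn differ from those of the grown animal. Nt5e fell by 0.81 ± 0.13 (SE) on the log2 scale in the perinate, from a mean intensity of 1296 to 738, a 1.75-fold difference (limma, adjusted p = 0.00469). Entpd1 fell by 0.68 ± 0.19 on the log2 scale, 1.61-fold (adjusted p = 0.0344). Both enzymes of the route from ATP to adenosine were thus lower in mRNA in perinate thymic Tregs. In contrast P2rx7 rose by 0.61 ± 0.14 on the log2 scale, 1.53-fold (adjusted p = 0.0185), and Dpp4 by 0.70 ± 0.13, 1.62-fold (adjusted p = 0.00833). Ada differed by 0.21 ± 0.13 with a 95% interval from -0.09 to 0.51 and an adjusted p of 0.241. So 4 of the 5 were called, against 24.3% of the 10650 genes tested (18.5% higher and 5.84% lower). Of all genes, 1967 were higher and 622 lower, a split that became 1201 and 952 with quantile normalization and 2206 and 309 with median centring.

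The Nt5e call was kept whichever thymus array was left out, with differences from -0.91 to -0.75. The Entpd1 call was lost without thymus adult replicate 3 (-0.63, adjusted p = 0.104) or without thymus perinate replicate 1 (-0.63, 0.132), 2 (-0.70, 0.102) or 3 (-0.72, 0.0985), and with median centring (-0.56, 0.0935). The P2rx7 call was lost without the same 4 arrays, at 0.58 (adjusted p = 0.0691), 0.59 (0.0878), 0.61 (0.0795) and 0.62 (0.0733), and the Dpp4 call without thymus perinate replicate 1 (0.63, 0.0532). The share of all genes called fell with those arrays as well, to between 6.65% and 9.73%. With the array's interquartile range as a covariate Nt5e stood at -1.03 (adjusted p = 0.000191), Entpd1 at -1.16 (0.000139), Dpp4 at 0.56 (0.0145) and P2rx7 at 0.38 (0.0648). Quantile normalization gave P2rx7 at 0.40 (adjusted p = 0.0365). The list of 9 immature thymocyte genes moved with age too: its summed intensity was 2776 to 2971 on the perinate and 3346 to 3782 on the adult arrays. Most of that difference lay in Cd8a and Cd8b1, which mark CD8 T cells as well and summed to 1323 to 1408 and 1831 to 1989. Cd8a stood at 9.75 ± 0.06 (SD) and 10.36 ± 0.04. Of that list Rag2, Dntt and Arpp21 were at background in both groups and Rag1 in the perinate group. The sum over 5 endothelial genes ran the other way, at 1283 to 1489 on perinate and 913 to 1147 on adult arrays, with Pecam1, which T cells also carry, at 10.13 ± 0.14 and 9.57 ± 0.32 and Kdr, Tek and Emcn at background. Sums over 6 dendritic cell genes (404 to 417 on perinate and 471 to 595 on adult arrays) were higher in the adult. So were those over 8 stroma and epithelium genes (1031 to 1127 and 1145 to 1361), 4 NK cell genes (339 to 352 and 363 to 440) and 3 erythroid genes (269 to 288 and 289 to 438). Itgax, Siglech and Xcr1 were above background in the adult group only, Zbtb46 in both, and Flt3 and Clec9a in neither. The part of such cells in the results was not tested.

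In the spleen, the comparison of tagged cells sets Tregs marked around birth against Tregs marked later, both taken from the grown mouse. Adult treatment marks Tregs present at that time, whenever they arose, and the time from treatment to sampling differs between the groups. What cells keep from birth is therefore not shown by this comparison alone. Entpd1 was higher in tagged perinate cells by 0.66 ± 0.20 (SE) on the log2 scale, from a mean intensity of 487 to 765, a 1.58-fold difference (limma, adjusted p = 0.034, 95% interval 0.23 to 1.08). Dpp4 was 0.53 ± 0.20 higher, which missed the threshold (adjusted p = 0.0714, 95% interval 0.11 to 0.95). Nt5e differed by 0.10 ± 0.21 (adjusted p = 0.775), P2rx7 by 0.06 ± 0.14 (0.803) and Ada by -0.08 ± 0.17 (0.762), with 95% intervals of -0.35 to 0.54, -0.24 to 0.35 and -0.44 to 0.28. The first enzyme of the ATP to adenosine route was thus called and the next was not. The call of 1 member in 5 stands beside 19.5% of the 10350 genes tested, and for higher calls beside 16%. Of all genes, 1658 were higher and 362 lower, and 1115 and 726 with quantile normalization.

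The Entpd1 call in the spleen was not firm. It was lost without tagged adult replicate 1 (0.54, adjusted p = 0.154) or 3 (0.72, 0.0649), and without tagged perinate replicate 2 (0.58, 0.0899), 4 (0.73, 0.059) or 5 (0.66, 0.0948). Quantile normalization gave 0.44 (adjusted p = 0.12), testing all genes without the filter 0.66 (0.0529), and the interquartile range as a covariate 0.43 (0.476). The last bears on a value that moved with the groups: over the 12 spleen arrays the correlation with the interquartile range was 0.61 for Entpd1 and 0.71 for Dpp4, against 0.24 for Nt5e, 0.29 for P2rx7 and -0.05 for Ada, as a description. Dpp4 passed without tagged perinate replicate 2, the array against its label (0.71, adjusted p = 0.0269), and without untagged adult replicate 3 (0.53, 0.0476). A sum of intensities over 7 B cell genes was also higher in tagged perinate samples, at 961 to 1134 against 772 to 838. Of these genes Cd79b, at 9.55 ± 0.14 (SD) against 8.89 ± 0.15, and Pax5 were above background, and Ms4a1, Cd79a, Ebf1, Cr2 and Blnk were at background. The sum over 8 myeloid genes was 643 to 725 against 591 to 626, with Cd68 above background in both groups, Csf1r and Itgam in the tagged perinate group, and Lyz2 at background. The part of such cells in the Entpd1 result was not tested.

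**Figure D2:**
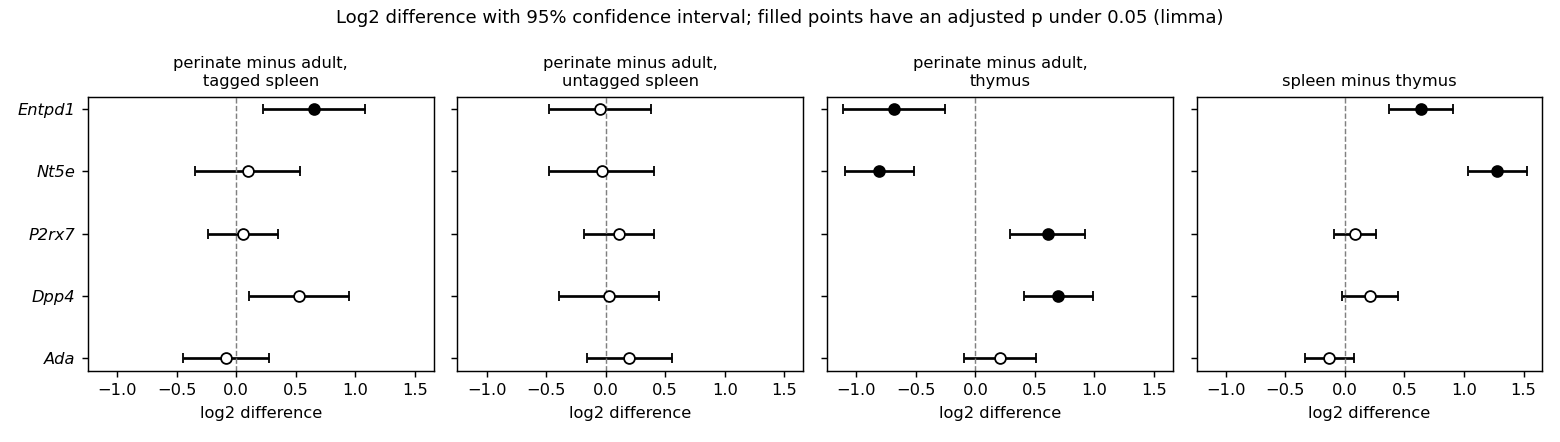
Log2 difference (x axis) with its 95% interval for the 5 genes (y axis) in 4 comparisons, 3 arrays per group; filled points have an adjusted p under 0.05 by limma. Entpd1 lies at 0.66 in the tagged spleen and at -0.68 in the thymus, and all 5 genes sit near 0 in the untagged spleen.

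The age difference of Entpd1 ran in opposite directions in the 2 settings, and that contrast was itself tested. The tagged spleen difference minus the thymus difference was 1.34 ± 0.29 (SE) on the log2 scale (limma, 18 arrays, adjusted p = 0.00897), where 6.46% of 10889 genes were called (3.89% above 0 and 2.56% below). Without tagged perinate replicate 2 it was 1.26 (adjusted p = 0.0247), and it was called without each of the 18 arrays in turn. For Nt5e this value was 0.90 ± 0.27 (adjusted p = 0.0537), for P2rx7 -0.55 ± 0.20 (0.1), for Dpp4 -0.17 ± 0.26 (0.768) and for Ada -0.29 ± 0.23 (0.493). Nt5e crossed the threshold without untagged adult replicate 3 or 5, untagged perinate replicate 3 or thymus adult replicate 2, and P2rx7 without thymus adult replicate 1 (-0.68, 0.0325). Those Nt5e values were 0.90 (adjusted p = 0.0195), 0.90 (0.0391), 0.90 (0.0219) and 1.01 (0.0342). Sex, age, sorter, reporter and tamoxifen differ between the spleen and thymus mice along with tissue, and their parts cannot be told apart.

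Averaged over groups, mRNA of both ectonucleotidases was higher in spleen than in thymic Tregs. Taking the mean of the 4 spleen groups minus the mean of the 2 thymus groups, Nt5e was 1.28 ± 0.12 (SE) higher, 2.43-fold (limma, adjusted p = 1.8e-07), and Entpd1 0.64 ± 0.13 higher, 1.56-fold (adjusted p = 0.000832). The ranges of Nt5e did not overlap. Those of Entpd1 did, and its tagged adult mean (8.92) lay below that of thymus adult (9.01). Here too sex, age, sorter, reporter and tamoxifen differ along with tissue. P2rx7 (0.08 ± 0.08, adjusted p = 0.473), Dpp4 (0.21 ± 0.11, 0.166) and Ada (-0.13 ± 0.10, 0.324) were not called. Of all genes 31.9% were called in this comparison, 1645 higher and 1831 lower, or 2044 and 1055 with median centring. Both calls were kept without each of the 18 arrays in turn, and Dpp4 joined them without both untagged arrays numbered 3 (0.29, adjusted p = 0.0368).

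In untagged cells no member was called between perinate and adult treatment. The differences were -0.05 for Entpd1, -0.03 for Nt5e, 0.11 for P2rx7, 0.03 for Dpp4 and 0.20 for Ada, each with an adjusted p of 0.995. The share of all genes called by limma was 0%, with 380 of 10350 at an unadjusted p under 0.05. With the replicate number as a block in these 2 groups alone 37 genes were called, none of them a member. The intervals are wide, from -0.47 to 0.38 for Entpd1 and from -0.48 to 0.41 for Nt5e. The tagged difference minus the untagged one was 0.70 ± 0.28 (SE) for Entpd1 (adjusted p = 0.193) and 0.50 ± 0.28 for Dpp4 (0.358), and 4.89% of genes were called, 4.29% above 0 and 0.599% below (444 and 62 genes, or 412 and 140 with quantile normalization). The Entpd1 value rose to 0.93 (adjusted p = 0.0327) without untagged adult replicate 3 and was 0.75 (0.045) without both untagged arrays numbered 3. With all arrays, a difference of Entpd1 between the tagged and the untagged comparison was therefore not called.

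Tagged cells had less Nt5e than untagged cells under both treatments, though not past the threshold. After adult treatment the difference was -0.61 ± 0.21 (SE) with no overlap of the groups (limma, adjusted p = 0.191), and after perinate treatment -0.48 ± 0.21 with overlap (adjusted p = 0.179). For adult treatment Entpd1 differed by -0.47 ± 0.20 (adjusted p = 0.27), Dpp4 by -0.46 ± 0.20 (0.273), Ada by 0.34 ± 0.17 (0.319) and P2rx7 by 0.23 ± 0.14 (0.413), the last without overlap. For perinate treatment the others lay between 0.04 for Dpp4 and 0.23 for Entpd1. The median over 50 snoRNA genes, small RNAs whose level can follow RNA preparation, was 8.14 to 8.53 on tagged perinate and 8.70 to 9.54 on untagged perinate arrays, without overlap, and 8.32 to 8.74 on tagged adult and 8.22 to 8.69 on untagged adult arrays. Its part in these comparisons, and in that of the untagged groups, was not tested. No member was called in either, where 0.271% of genes were called for adult and 7.34% for perinate treatment (5.49% higher and 1.86% lower, 568 and 192 genes, or 510 and 364 with quantile normalization).

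**Figure D3:**
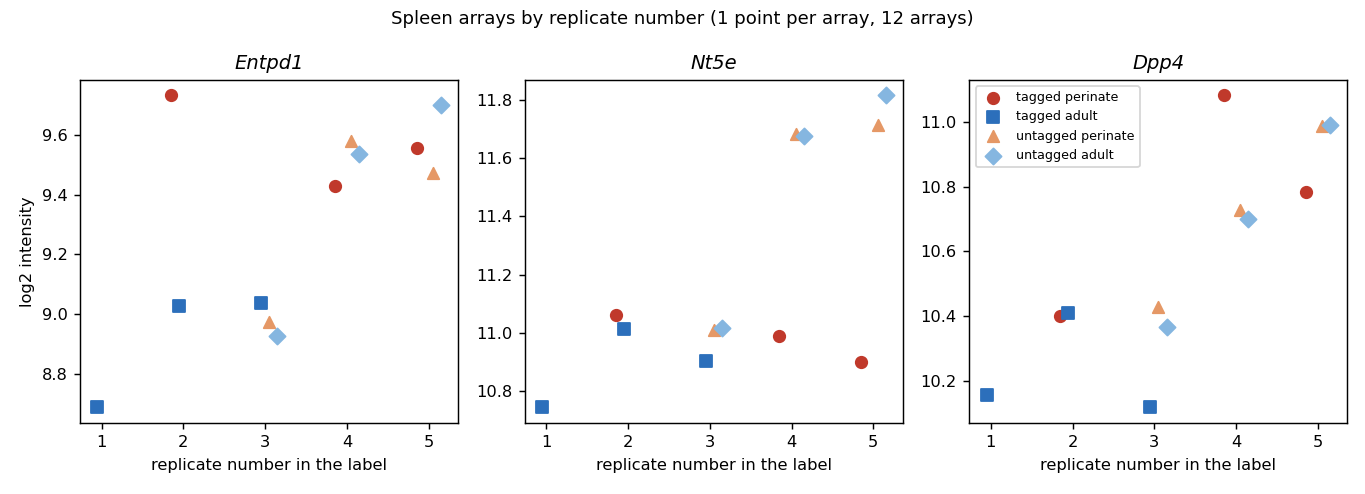
Log2 intensity (y axis) of Entpd1, Nt5e and Dpp4 on the 12 spleen arrays against the replicate number in the label (x axis), 1 point per array, coloured and shaped by group. The 2 untagged arrays numbered 3 lie together and below the other 4 untagged arrays for all 3 genes, at 11.01 and 11.02 for Nt5e against 11.67 to 11.82.

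These last comparisons turned on the untagged arrays numbered 3, as the plot by replicate number shows. On them Nt5e, Entpd1 and Dpp4 were lower than on the other untagged arrays in both treatments, alongside the low Ctla4 given above. Without the pair, an alternative chosen after seeing the data, Nt5e was lower in tagged cells by limma under both treatments, at -0.86 (adjusted p = 0.000419) for adult and -0.71 (0.00195) for perinate. For adult treatment Entpd1 (-0.70, adjusted p = 0.00458) and Dpp4 (-0.62, 0.0332) were then also lower in tagged cells and Ada higher (0.52, 0.0368). That makes 4 of 5 genes for adult treatment, where 13.8% of all genes were called, and 1 of 5 for perinate treatment, where 15.3% were. Without untagged adult replicate 3 alone, Entpd1 (-0.70, adjusted p = 0.0332) and Nt5e (-0.86, 0.0173) were called for adult treatment, and without untagged perinate replicate 3 alone Nt5e (-0.71, 0.032) for perinate treatment. The arrays left out were the low untagged ones for Nt5e, Entpd1 and Dpp4. Leaving them out widens the gap by itself, so the p-values without them are no independent support. On the pair Nt5e lay within the range of the tagged arrays (10.75 to 11.06). Why those arrays stand apart was not tested.

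Across the 12 spleen arrays the members did not move as a block. Nt5e and Entpd1 had a Pearson correlation of 0.64 (Spearman 0.57), and of 0.95 on deviations from the group means. Without both untagged arrays numbered 3, which were low for both genes, the values over 10 arrays were 0.61 and 0.77. Nt5e and P2rx7 ran against each other over all 12 arrays (-0.76, Spearman -0.78), with -0.64 on deviations from the group means and 0.04 on them without those 2 arrays. So did Dpp4 and Ada (-0.70, Spearman -0.66), with -0.80 and -0.66 on the deviations. These are descriptions over arrays that share groups and scaling.

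By Pearson correlation over the same 12 arrays, the genes closest to Entpd1 were Cd81 (0.97), a tetraspanin, Mrgpre (0.97) and Heg1 (0.97). Closest to Nt5e were Mid2 (0.99), Gnaq (0.98), a G protein alpha subunit, and Trim24 (0.97). P2rx7 came with Stk4 (0.97), a kinase of the Hippo pathway, Ccnd2 (0.96), a cyclin, and Lipa (0.96), a lysosomal lipase. Dpp4 came with Tfrc (0.97), the transferrin receptor, Cntrl (0.96) and Fancm (0.95). For Ada the closest were weaker: Rgs19 (0.89), Bcl2l12 (0.88) and Abhd16a (0.87). Each was the best of 9825 genes, so high values arise by the search itself.

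The wider purine pathway was read through lists of 111 genes, 99 of them with a probe set of 1 symbol. They cover ectonucleotidases, NAD ectoenzymes, P2 receptors, ATP release, adenosine receptors, cAMP signalling, nucleoside transport, purine conversion and salvage, and dipeptidyl peptidases. The 4 adenosine receptors, which sense the product of Nt5e, were not analysed here.

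In the thymus 16 of 71 tested pathway genes were higher in the perinate and 7 lower, 22.5% and 9.86%, beside 18.5% and 5.84% of all genes. Their median difference was 0.27 on the log2 scale, against 0.17 for all genes. Of the 10 ectonucleotidases tested, 4 fell and 1 rose, and with median centring 2 fell and 1 rose. With Nt5e and Entpd1, Acpp, an acid phosphatase that can also split AMP outside the cell, fell by 0.63 ± 0.13 (SE, adjusted p = 0.0122), and Alpl, an alkaline phosphatase, fell by 0.44 ± 0.11 (0.0247). Nt5e, Acpp and Alpl all encode enzymes that can release adenosine from AMP. The riser was Entpd5, an enzyme of the endoplasmic reticulum (0.64 ± 0.18, adjusted p = 0.035). Among 4 P2 receptors P2rx7 rose and P2ry14, a receptor for UDP-sugars, fell by 0.53 ± 0.11 (adjusted p = 0.0133), while P2rx4 (0.37, 0.29) and P2ry10 (-0.33, 0.0839) were not called. No gene of ATP release (6 tested) or nucleoside transport (5 tested) was called, nor the 1 NAD ectoenzyme tested.

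Further inside the cell, 4 of 17 cAMP genes rose and 2 fell in the perinate thymus. Pde2a, a phosphodiesterase that degrades cAMP, fell by 1.26 ± 0.13 (SE) on the log2 scale (limma, adjusted p = 0.000834), from 8.38 ± 0.11 (SD) in the adult to 7.11 ± 0.16, and Pde4b, another, fell by 0.66 ± 0.12 (0.00821). Prkar2a, a regulatory subunit of the cAMP-dependent kinase, rose by 1.10 ± 0.17 (adjusted p = 0.00453). Purine conversion and salvage had 6 of 21 higher and 0 lower. Ahcyl2, a relative of adenosylhomocysteinase, rose by 0.87 ± 0.17 (0.0115), and Adal, an adenosine deaminase-like enzyme, by 0.64 ± 0.15 (0.0203). Adss, which takes the first step from IMP towards AMP, rose by 0.81 ± 0.22 (0.0321). Of 7 dipeptidyl peptidases 4 rose and 0 fell: beside Dpp4, Dpp3 rose by 0.91 ± 0.13 (0.00314), Prep, a cytosolic prolyl peptidase, by 0.81 ± 0.13 (0.00554), and Dpp8, a cytosolic relative, by 0.50 ± 0.12 (0.025). With quantile normalization the lists as a whole gave 10 higher and 10 lower, the ectonucleotidases 0 higher and 4 lower, and the peptidases 3 higher and 1 lower. Entpd5 and Dpp8 were then not called as higher, and Alpl was not called with median centring. Without thymus perinate replicate 1 only 3 were higher and 3 lower, without perinate replicate 2 or 3 there were 5 and 3, and without thymus adult replicate 3 there were 6 and 4.

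**Figure D4:**
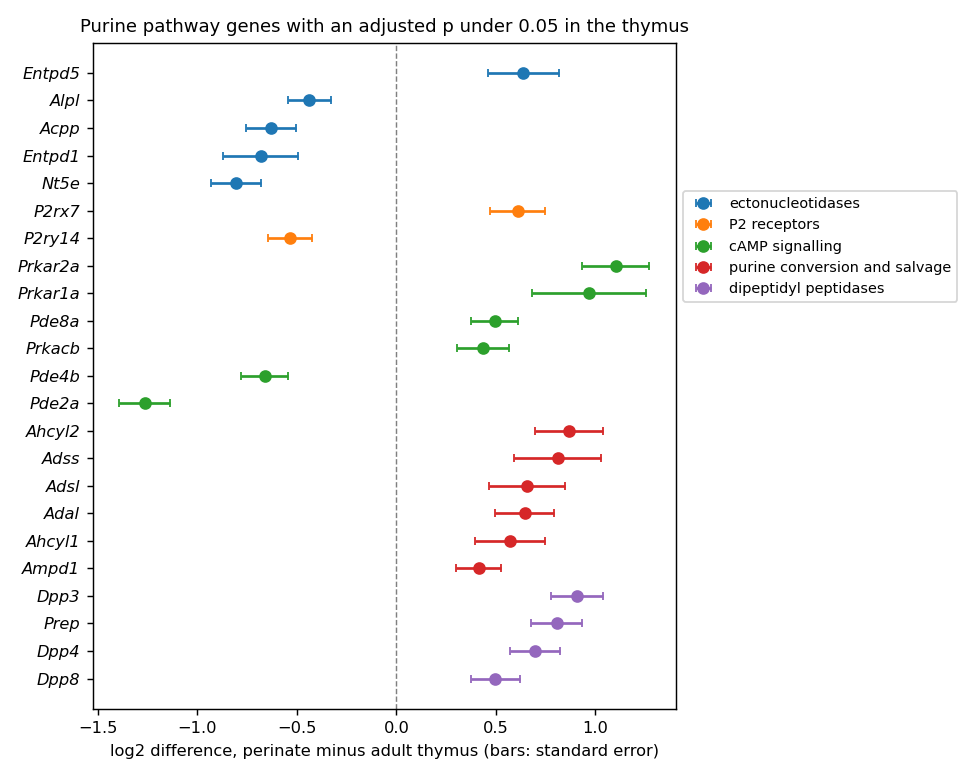
Log2 difference between perinate and adult thymus (x axis, with the standard error as bars) for the 23 pathway genes with an adjusted p under 0.05 by limma (y axis), coloured by list, 3 arrays per group. Ectonucleotidases lie mostly below 0, with Nt5e at -0.81, and salvage enzymes and peptidases above it.

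Between the tagged spleen cells 12 of 67 tested pathway genes were higher in the perinate and 3 lower, 17.9% and 4.48%, beside 16% and 3.5% of all genes. Their median difference was 0.12 on the log2 scale, as it was for all genes. Entpd7, a relative of Entpd1, was the other ectonucleotidase called (0.62 ± 0.16, SE, limma, adjusted p = 0.013), of 10 tested. The strongest call of the lists was Pde3b, a cAMP phosphodiesterase, which rose by 1.43 ± 0.16 (adjusted p = 2.29e-05), from 6.86 ± 0.32 (SD) in tagged adult to 8.28 ± 0.11 in tagged perinate cells. Prkar2a rose by 0.80 ± 0.16 (adjusted p = 0.00405) and Pde4b fell by 0.57 ± 0.13 (0.0084), the signs both genes had in the thymus. In both settings the perinate arrays had the wider interquartile range. Pde2a, which fell in the thymus, was not called here, at 9.75 ± 0.02 (SD) in tagged perinate and 9.41 ± 0.17 in tagged adult cells. In all, 4 of 15 cAMP genes were higher and 1 lower.

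Of 20 salvage enzymes 4 were higher in tagged perinate cells and 0 lower. Dck, a deoxynucleoside kinase, rose by 0.88 ± 0.14 (SE, limma, adjusted p = 0.000789), Pnp, which splits the inosine that Ada makes, by 0.69 ± 0.15 (0.00624), and Aprt, which salvages adenine, by 0.49 ± 0.11 (0.00842). Of 7 dipeptidyl peptidases Dpp3 (0.65 ± 0.20, adjusted p = 0.0348) and Dpp8 (0.38 ± 0.12, 0.0386) were higher. Lower were Slc17a9, which loads ATP into vesicles (-0.63 ± 0.21, adjusted p = 0.0499), the only one of 6 ATP release genes called, and Slc29a2, a nucleoside transporter (-0.46 ± 0.15, 0.0447), 1 of 5. No P2 receptor of 4 was called. With quantile normalization Aprt, Dpp3 and Dpp8 were no longer called, and with median centring Slc17a9 and Slc29a2 were not. The lists gave 14 higher and 2 lower without tagged perinate replicate 2, 8 and 5 with quantile normalization, and 1 and 0 with the interquartile range as a covariate. They gave 6 and 1 without tagged adult replicate 1, 5 and 1 without tagged adult replicate 3, 7 and 1 without tagged perinate replicate 4, and 5 and 0 without tagged perinate replicate 5.

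Pde3b and Dck differed more between the tagged than between the untagged groups (interaction 1.46 ± 0.22, SE, limma, adjusted p = 0.00113, and 0.79 ± 0.20, 0.0367), 2 of 67 tested beside 4.89% of all genes. The Pde3b interaction was called in 23 of 24 alternatives and that of Dck in 10 of 24, not with median centring (0.86, adjusted p = 0.0501). Tagged against untagged cells of perinate treatment gave 5 of 67 higher and 2 lower, 7.46% and 2.99%, beside 5.49% and 1.86% of all genes. Higher were Prkar2a (0.90 ± 0.16, adjusted p = 0.00411), Hprt (0.62 ± 0.15, 0.019) and Pde3b (0.55 ± 0.16, 0.045), and lower Pde7a (-0.68 ± 0.18, 0.0336) and Pde4b (-0.47 ± 0.13, 0.0461). Ampd3, an AMP deaminase (0.55 ± 0.13, adjusted p = 0.0218), and Dck (0.59 ± 0.14, 0.0227) made up the 5. Pde3b lost its call here with quantile normalization (0.49, adjusted p = 0.0919) and with median centring (0.59, 0.0563), and Pde7a and Pde4b with median centring. Those of adult treatment gave Pde3b alone (-0.91 ± 0.16, adjusted p = 0.0307), 1 of 67 beside 0.271% of all genes, called in 17 of 25 alternatives. Pde2a and Pde3b joined Entpd1 above 0 in the tagged spleen minus thymus contrast (1.61 ± 0.32, adjusted p = 0.00421, and 1.16 ± 0.20, 0.0012), and Ahcyl2 lay below it (-0.82 ± 0.22, 0.0345), which makes 3 of 72 above and 1 below, beside 3.89% and 2.56% of all genes. Ahcyl2 was not called there with median centring.

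Spleen against thymus gave 13 of 72 higher and 11 lower, 18.1% and 15.3%, beside 15.1% and 16.8% of all genes. Of 10 ectonucleotidases 5 were higher in the spleen, led by Acpp (1.31 ± 0.10, SE, limma, adjusted p = 2.02e-08), Nt5e and Entpd5 (0.95 ± 0.11, 2.75e-06), and 2 were lower. Pde2a was higher in the spleen by 1.97 ± 0.14 (adjusted p = 6.69e-09), whereas Pde4d (-0.78 ± 0.09, 5.57e-06) and Pde4a (-0.59 ± 0.07, 8.8e-06) were lower. Pde4a passed the filter on low values by its thymus means only, at 7.30 (perinate) and 7.26 (adult). Its spleen group means were 6.60 to 6.78. Slc28a2, a sodium-driven nucleoside transporter, was higher (0.42 ± 0.08, adjusted p = 0.000843) and Slc29a2 lower (-0.33 ± 0.09, 0.00855). Of the AMP deaminases, Ampd3 was higher in the spleen (0.36 ± 0.09, adjusted p = 0.00514) and Ampd1 lower (-0.48 ± 0.10, 0.0017). Ampd1 passed the filter by its thymus perinate mean only (7.19). Its mean was 6.78 in thymus adult and 6.38 to 6.69 in the spleen groups. Among the peptidases Dpp8 was higher (0.32 ± 0.07, adjusted p = 0.00225) and Prcp lower (-0.26 ± 0.09, 0.029). Acpp followed Nt5e in its levels, at 7.64 ± 0.16 (SD) in thymus perinate, 8.27 ± 0.09 in thymus adult and 9.10 to 9.38 by mean in the 4 spleen groups.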

How the data were processed

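RNA of sorted Tregs, extracted with TriZol, was labelled with an Affymetrix kit and hybridised to Mouse Gene 1.0 ST arrays, per the labels. The authors' deposited values are probe set intensities on a linear scale (6.81 to 18850), produced by RMA in Affymetrix Power Tools according to the submitters' processing notes; versions are not given in the sources used here. The number of arrays, 3 a group, sets the precision.

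Values were log2 transformed with no pseudocount. Of 24922 probe sets, 21425 carry 1 symbol, 1399 several and 2098 none; a lookup of Entrez IDs in RefSeq's gene table matched 21347 and changed 0 symbols. The probe set with the highest mean stood for a gene. A gene entered a fit where 1 group mean reached 7.05, the log2 median of all values, which left 10350 genes for spleen (12 arrays), 10650 for thymus (6) and 10889 for all 18. Tests used limma 3.58.1 (lmFit, eBayes, two-sided) in R 4.3.3 with Benjamini-Hochberg adjustment. With 3 against 3 arrays an exact permutation test reaches no p below 0.1. No arrays were duplicates (highest correlation 0.996). On simulated data with log2 changes of 1 and 2 in 100 genes each, the tagged comparison of 10350 genes found 88 and 100, with 5 unchanged genes called, and the thymus comparison of 10650 genes 77 and 94, with 8. The simulated noise was independent between genes and arrays, without the outlying arrays and unequal array spread seen here. Those counts check the code and are not error rates for the real arrays. The members and lists were chosen with earlier results of these data known. Named are the members, the pathway genes called (up to 3 of a list with the lowest p), 3 closest genes per member, check genes and markers above background; Dpp8, Pde4b, Entpd5, P2rx4 and P2ry10 were in places named beyond that rule after their values were seen. Alternatives covered scaling, filter, probe sets, prior, weights, arrays in the fit, array spread, a minimum 2-fold change, pairing and leaving out arrays. The pairing check compared each array's deviations from its group mean with those of the array of equal number: untagged numbers 3, 4 and 5 gave 0.62, 0.13 and 0.45, each over 0.1, so they were taken to pair those arrays, from the data and not the labels. Untagged perinate 4 correlated more with untagged adult 5 (0.28), so the check does not settle the pairing of numbers 4 and 5. A chimera arm of the series text was not analysed here. Promoters are from RefSeq. Figures used matplotlib 3.10.9 in Python 3.11.15.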

Additional observations from a re-analysis of the deposited data

Results flagged for a closer look

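The age difference of Entpd1 differed between tagged spleen Tregs and thymic Tregs by 1.34 ± 0.29 (SE) on the log2 scale (limma, adjusted p = 0.00897). It was higher in the perinate in the spleen, by 0.66, and lower in the perinate in the thymus, by a difference of -0.68, and each pair of groups was free of overlap. Sex, sorter, age, reporter and tamoxifen differ along with tissue and cannot be told apart.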

How the results depend on the processing

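The number of members called held within 1.5 times the main count except as follows. For tagged perinate against tagged adult (1 of 5) it was 0 with quantile normalization, no filter, the interquartile range as a covariate, a minimum 2-fold change or the replicate block, and 2 with array weights, only the 2 groups in the fit, or both untagged arrays numbered 3 left out. For the difference between the tagged and untagged differences (0) it was 1 without those arrays. For tagged against untagged cells it was, under perinate treatment (0), 2 with array weights, 1 with the replicate block on all spleen arrays (Nt5e -0.63, adjusted p = 0.0191), 2 with the block in the 2 groups alone, and 1 without both arrays numbered 3, and under adult treatment (0) 4 without them. For the thymus (4) and for spleen against thymus (2) it was 0 with a minimum 2-fold change, and for the latter 5 with array weights. For the tagged spleen difference minus the thymus difference (1) it was 2 with quantile normalization, a trended robust prior, only the groups of the contrast, the interquartile range or without both arrays numbered 3, 3 with array weights, and 0 with a 2-fold minimum or the replicate block.

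Leaving out 1 array at a time gave 0 to 2 members for the tagged comparison, 0 to 0 for the untagged one, 0 to 1 for the difference between them, 0 to 1 and 0 to 2 for tagged against untagged under perinate and adult treatment, 1 to 4 for the thymus, 1 to 2 for the spleen minus thymus difference and 2 to 2 for spleen against thymus.

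Pairing by number was clear only in part for the untagged arrays. Untagged perinate 4 correlated more with untagged adult 5 (0.28) than with untagged adult 4 (0.13). Between the untagged groups the replicate block changed no call of a member (0 called). In the thymus same-numbered arrays correlated at -0.05, 0.07 and 0.12, and the block kept 4 calls there. Tagged groups share 1 number (correlation 0.0007), and the block gave Entpd1 0.29 (adjusted p = 0.422) there and 0.98 (0.0682) for the spleen minus thymus difference. The block in 2 groups alone was not run for the tagged comparison or adult treatment, which share 1 number, nor any block for spleen against thymus. No called value changed sign.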
